A study of Mus musculus with 93 samples.

Results

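The genes described here are Fgf21 and Gdf15, which encode hormones that the liver can secrete, Klb, which encodes the coreceptor β-klotho, and Fgfr1, Fgfr2, Fgfr3 and Fgfr4, which encode the FGF receptors. They were chosen by name, as the rows of the count table whose Ensembl identifiers belong to these symbols, and all 7 were found among 53465 rows. The table held liver RNA-seq counts of 93 male mice from 7 inbred strains, of which CAST/EiJ, PWK/PhJ and WSB/EiJ descend from wild-caught mice and 129S1/SvImJ, A/J, C57BL/6J and DBA/2J are classical laboratory strains. The mice ate a control diet (CD, 10% of energy from fat, 45 mice) or a Western diet (WD, 40% of energy from fat, 48 mice). All of them, on either diet, were kept at thermoneutrality (TN, 30 °C) from 6 weeks of age, began the diets at 7 weeks, and were sampled at 24 weeks after 17 weeks of diet and a fast of 4 h. On CD there were 8 C57BL/6J, 6 DBA/2J, 5 A/J, 7 129S1/SvImJ, 6 WSB/EiJ, 7 CAST/EiJ and 6 PWK/PhJ mice, and on WD 8, 7, 6, 6, 6, 8 and 7. Mice of a strain are genetically alike, so each strain is a single genotype, and its mice came from 2 cohorts, or 3 for CAST/EiJ. The comparisons ask whether the diet changed these genes in each strain, and whether their level and their response differed with the genetic background.

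FGF21 is a hormone made mainly by hepatocytes. It acts on cells that carry β-klotho together with an FGF receptor, FGFR1 above all. In mouse liver its gene is induced by the nuclear receptor PPARα during fasting and by the transcription factor ATF4 during the integrated stress response. GDF15 is a stress hormone that is induced by ATF4, CHOP and p53 and acts through GFRAL and its coreceptor RET in the hindbrain. Hepatocytes themselves carry FGFR4 and β-klotho, which receive FGF15 from the intestine and repress Cyp7a1, the rate-limiting enzyme of bile acid synthesis.

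In the GRCm38 annotation Fgf21 (ENSMUSG00000030827) lies at chr7:45613886-45615490 on the minus strand, and Gdf15 (ENSMUSG00000038508) at chr8:70629393-70632456 on the minus strand. Klb (ENSMUSG00000029195) spans chr5:65348314-65384007 and Fgfr3 (ENSMUSG00000054252) chr5:33721674-33737068, both on the plus strand. Fgfr1 (ENSMUSG00000031565) lies at chr8:25513654-25575718 and Fgfr4 (ENSMUSG00000005320) at chr13:55152640-55168759, both on the plus strand. Fgfr2 (ENSMUSG00000030849) is annotated on the minus strand over chr7:130162451-133123350, a span that takes in many other genes, although Ctbp2 is the only one that shares exon bases with it (314 bases, same strand). An opposite-strand transcript overlaps 998 exon bases of Fgfr3 (G630022F23Rik, 698 counts over all mice), and another overlaps 164 exon bases of Fgfr1 (Gm16159, 15 counts). The strand setting of the counting is not given in the sources used here, so reads in these overlaps could belong to either gene.

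The promoters of both ligand genes are shown for the motifs that were searched for in them. The Fgf21 window held no PPAR element, and the Gdf15 window shown held no ATF4 element. RefSeq promoters of the GRCm38.p6 build, 250 bases before to 50 bases after the start, were found for 6 of the 7 genes, and Fgfr1 had no entry. In the Fgf21 promoter, chr7:45615441-45615740 on the minus strand, the capitals mark TTGCATCA, the reverse complement of the ATF4 element TGATGNAA, with its first base at −139 from the start, then the E-box CACGTG at −50 and the TATA box TATAAA at −28. In the Gdf15 promoter, chr8:70632407-70632706 on the minus strand, the capitals mark a PPAR element, which is a direct repeat of AGGNCA with 1 base between the copies, at −55.
Fgf21: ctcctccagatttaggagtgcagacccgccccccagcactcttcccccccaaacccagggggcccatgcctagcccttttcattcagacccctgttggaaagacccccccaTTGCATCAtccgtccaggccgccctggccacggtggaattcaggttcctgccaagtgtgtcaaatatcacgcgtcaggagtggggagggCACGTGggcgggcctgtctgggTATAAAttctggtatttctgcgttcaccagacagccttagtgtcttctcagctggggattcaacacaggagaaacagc
Gdf15: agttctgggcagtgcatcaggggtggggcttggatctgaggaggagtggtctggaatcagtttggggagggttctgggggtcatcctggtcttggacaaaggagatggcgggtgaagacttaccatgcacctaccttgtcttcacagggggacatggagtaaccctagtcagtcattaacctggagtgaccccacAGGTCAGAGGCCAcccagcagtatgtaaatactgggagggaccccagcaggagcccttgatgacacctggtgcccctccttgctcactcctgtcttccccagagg
Among 32851 promoters of this length, and with both strands searched, 3.97% held the ATF4 element, 0.381% the PPAR element, 7.15% the E-box and 13.6% the TATA box. The 4 motifs did not overlap one another here. The promoter of the other Gdf15 start held an E-box at −83, the Fgfr2 promoter held one at 29 bases after the start, and those of Klb, Fgfr3 and Fgfr4 held none of the 4 motifs. These letters are a description of the windows and were not tested against the values below.

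Libraries held 40020424 to 49894856 reads on genes, with a median of 46618609. At this depth each of the genes had reads in every mouse, down to 15 counts for Gdf15 and 27 for Fgf21. All 7 passed the filter on low counts, with 19110 genes in all. Levels are given as CPM, the count divided by the library size scaled by TMM and multiplied by 1000000. Compared per kb of exons, the mean over the 14 groups was 15.1 CPM per kb for Fgfr4, 14.9 for Fgf21, 7.99 for Gdf15, 7.70 for Fgfr3, 5.84 for Klb, 4.13 for Fgfr2 and 0.573 for Fgfr1. Exon lengths merge all transcripts of a gene, and with the longest transcript alone Fgfr2 stood at 9.64 and Fgfr1 at 1.12. As a check of the tissue, the 9 measured hepatocyte markers summed to between 71580 and 221600 CPM per mouse. Reads of all strains were mapped to the C57BL/6J genome, and the median share of unmapped reads was 2.39% in C57BL/6J, 2.20% in A/J, 5.16% in 129S1/SvImJ, 5.42% in DBA/2J, 5.48% in PWK/PhJ, 6.05% in WSB/EiJ and 12.5% in CAST/EiJ. It also differed between the diets of a strain, most clearly in PWK/PhJ, where it was 2.22–4.24% on CD and 5.48–8.73% on WD without overlap, and in WSB/EiJ it was 2.44–6.44% on CD and 3.32–10.4% on WD. The part of mapping in the levels and the diet differences below was not tested.

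WD was compared with CD in each strain with limma-voom, in 1 fit over all 93 mice, and a gene was called changed at an adjusted p below 0.05 (Benjamini–Hochberg over all genes tested). Of the 49 combinations of 7 genes and 7 strains, 14 were called. By strain, WD changed 3 of the 7 genes in C57BL/6J, where 26.2% of all genes tested were called, 1 in DBA/2J (18% of all genes), 1 in A/J (9.03%), 3 in 129S1/SvImJ (28%), 0 in WSB/EiJ (8.94%), 4 in CAST/EiJ (19.5%) and 2 in PWK/PhJ (29.6%). Thus Fgf21 fell in 3 strains, Klb in 3, Fgfr2 in 3 and Fgfr4 in 3, whereas Fgfr3 and Fgfr4 rose in CAST/EiJ and Gdf15 and Fgfr1 were called in no strain. In each of the 14, the difference had the same sign in every cohort, 32 of 32 cohort values. The 14 were picked by the difference over these same mice, so part of this agreement was fixed in advance. In CAST/EiJ 1 cohort held only 1 CD mouse.

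Fgf21 was lower on WD in all 7 strains and in 15 of 15 cohort values, and the fall passed the test in C57BL/6J, A/J and CAST/EiJ. In C57BL/6J the CD mice ranged from 13.9 CPM through a median of 51.1 to 64.4, and the WD mice from 6.54 through 10.4 to 20.3. Of the 8 WD mice, 6 lay below every CD mouse, and the overlap came from a single CD mouse at 13.9 CPM. The log2 fold change was −2.08 ± 0.349 (SE, adjusted p = 2.35e-06). The 5 A/J mice on CD had 22.6, 24.6, 5.34, 11.4 and 21.4 CPM, whereas those on WD ranged from 2.28 through a median of 3.65 to 8.38. Here 4 of 6 WD mice lay below all CD mice, and the log2 fold change was −1.95 ± 0.560 (adjusted p = 0.0158), which no longer passed without the first CD mouse (adjusted p = 0.0522) or the second (0.0549).

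On the log2 scale CAST/EiJ on CD showed the widest spread of Fgf21 (SD 2.14), although in CPM the SD was larger in C57BL/6J (14.8) and PWK/PhJ (13.5) on CD than in CAST/EiJ (12.2). Its CD mice ran from 0.733 CPM through a median of 8.90 to 28.8, and its WD mice from 0.655 through 1.42 to 3.49. The log2 fold change was −2.17 ± 0.693 (adjusted p = 0.0178), but only 1 WD mouse lay below all CD mice, and the call was lost without CD replicate 3 (adjusted p = 0.0574), 6 (0.0591) or 7 (0.0696). In the strains where the fall was not called, the log2 fold change was −1.10 ± 0.439 in DBA/2J (adjusted p = 0.069), −0.88 ± 0.512 in 129S1/SvImJ (0.2), −1.59 ± 0.753 in WSB/EiJ (0.199) and −0.82 ± 0.366 in PWK/PhJ (0.0833). In these strains the call depended on the model or on single mice. WSB/EiJ passed with the edgeR quasi-likelihood test (−2.06, adjusted p = 0.0031) and DESeq2 (−2.07, 0.000478). DBA/2J passed in 5 of 23 alternatives (adjusted p down to 0.0151 in a separate fit), 129S1/SvImJ in the separate fit alone (0.00188), and PWK/PhJ without CD replicate 3 (−1.04, 0.0271) or WD replicate 5 (−0.96, 0.0494). Whether the diet effect on Fgf21 differed between strains was tested with an F test in the same fit, in which 37.5% of all genes were called, and for Fgf21 it did not pass (adjusted p = 0.122). With edgeR (0.0208), DESeq2 (0.00905) or sample quality weights (0.00723) it did.

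**Figure D1:**
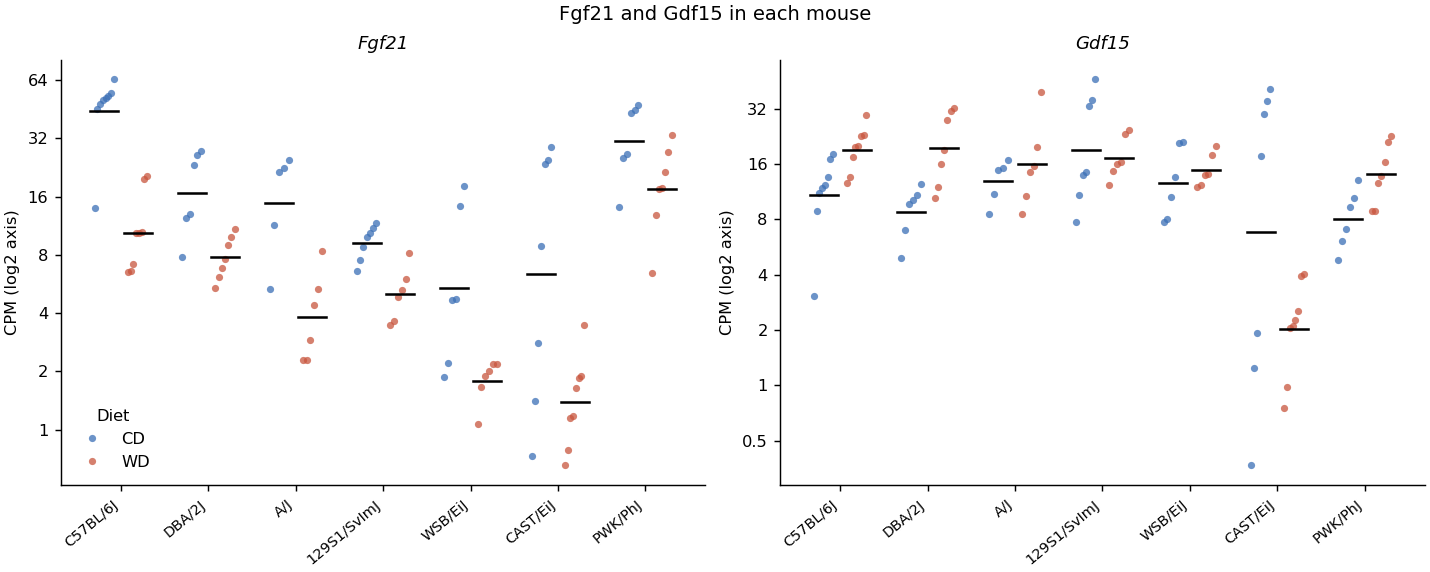
Fgf21 and Gdf15 in every mouse (CPM, log axis) by strain and diet, where each point is a mouse and the black bar is the mean on the log2 scale. Fgf21 sits lower on WD in each strain, and the 7 CAST/EiJ mice on CD spread from 0.733 to 28.8 CPM for Fgf21 and from 0.368 to 40.7 CPM for Gdf15.

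Gdf15 did not pass the test in any strain with limma-voom over all mice, although DBA/2J passed with DESeq2 (adjusted p = 0.0445) and in a separate fit (0.0168), and PWK/PhJ in a separate fit (0.0353). Its values on WD were higher in 5 strains and lower in 129S1/SvImJ and CAST/EiJ. In DBA/2J the CD mice ranged from 4.93 CPM through a median of 9.99 to 12.4 and the WD mice from 10.5 through 19.0 to 32.4, so that 5 of 7 WD mice lay above all CD mice, with a log2 fold change of 1.15 ± 0.471 (adjusted p = 0.0775). In C57BL/6J it was 0.81 ± 0.391 (adjusted p = 0.122), in PWK/PhJ 0.81 ± 0.482 (0.211), in A/J 0.31 ± 0.486 (0.769) and in WSB/EiJ 0.23 ± 0.483 (0.857). In 129S1/SvImJ it was −0.13 ± 0.417 (adjusted p = 0.86).

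The CAST/EiJ mice on CD ranged from 0.368 CPM of Gdf15 through a median of 17.7 to 40.7, and those on WD from 0.752 through 2.18 to 4.02. All 8 WD mice were low, and the CD mice lay below, among and above them. The log2 fold change was −1.69 ± 0.690 (adjusted p = 0.073) with limma-voom and −2.06 (0.016) once sample quality weights were added, −2.96 with edgeR (5.29e-07) and −2.99 with DESeq2 (4.73e-10). Leaving out CD replicate 1 (adjusted p = 0.003), 2 (0.0315) or 4 (0.0194), which were the lowest CD mice, also brought it past the threshold. The F test for a diet effect that differs between strains passed for Gdf15 (adjusted p = 0.0362), and against the mean of the other 6 strains the CAST/EiJ effect was −2.22 ± 0.714 on the log2 scale (adjusted p = 0.0244, with 14.5% of all genes called in that contrast). By the cohorts, the CAST/EiJ difference was −2.12 and −2.90 in those with 2 and 4 CD mice and 2.77 in the cohort with a single CD mouse.

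Klb, the coreceptor, was lower on WD in all 7 strains and 15 of 15 cohort values. In 129S1/SvImJ the CD mice ranged from 25.0 CPM through a median of 31.9 to 44.9, and the WD mice from 14.2 through 18.6 to 20.7. The groups did not overlap, and the log2 fold change was −0.86 ± 0.193 (adjusted p = 0.000331). PWK/PhJ fell from 12.7, 16.9 and 19.6 CPM (lowest, median and highest on CD) to 6.07, 9.55 and 17.5 on WD, with 6 of 7 WD mice below all CD mice and a log2 fold change of −0.71 ± 0.217 (adjusted p = 0.00767). CAST/EiJ went from 25.7, 32.8 and 40.6 to 15.8, 24.3 and 32.2 CPM, with 6 of 8 WD mice below all CD mice and a log2 fold change of −0.50 ± 0.179 (adjusted p = 0.0369), a call that 6 of the 15 mice each ended when left out (adjusted p up to 0.0978).

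In A/J the Klb groups did not overlap either. The CD mice had 47.6, 44.1, 43.4, 47.8 and 46.9 CPM and the WD mice 26.2 to 43.0 with a median of 32.7, but the log2 fold change of −0.45 ± 0.200 did not pass (adjusted p = 0.156). It passed with sample quality weights (0.0235) and in a separate fit (0.0176). The difference was −0.45 ± 0.210 in WSB/EiJ (adjusted p = 0.185), −0.32 ± 0.170 in C57BL/6J (0.163) and −0.17 ± 0.186 in DBA/2J (0.61). Among the C57BL/6J mice on CD, replicate 2 had 11.6 CPM, the lowest, and without it the difference was −0.49 (adjusted p = 0.0115). The F test between strains did not pass for Klb (adjusted p = 0.294).

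Among the receptors, Fgfr1, the main partner of FGF21 outside the liver, had few reads and no called change in the fit of all mice. It was higher on WD in 6 strains. Of 23 alternatives, 129S1/SvImJ passed in 5 (adjusted p down to 0.000893), DBA/2J in 3 (0.0173) and PWK/PhJ in 3 (0.00767), and C57BL/6J passed without CD replicate 2 (0.47, adjusted p = 0.0486, against 0.25 with it). In 129S1/SvImJ the CD mice ranged from 2.23 CPM through a median of 2.52 to 3.05 and the WD mice from 3.17 through 3.88 to 5.48, without overlap, and the log2 fold change was 0.66 ± 0.282 (adjusted p = 0.0708). Only in CAST/EiJ was the value negative, at −0.25 ± 0.166 (adjusted p = 0.309). There the effect minus that averaged over the other 6 strains was −0.64 ± 0.203 (adjusted p = 0.0228), while the F test over all strains missed the threshold (0.0894).

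Fgfr2 fell in DBA/2J, C57BL/6J and 129S1/SvImJ. The DBA/2J mice had 51.2 to 68.7 CPM with a median of 60.0 on CD and 31.4 to 47.0 with a median of 39.8 on WD, with no overlap and a log2 fold change of −0.56 ± 0.116 (adjusted p = 0.000178). The DBA/2J effect minus the average effect in the other 6 strains was −0.41 ± 0.126 on the log2 scale (adjusted p = 0.0321, with 7.77% of all genes called in that contrast). C57BL/6J went from 35.6, 41.9 and 48.2 to 24.3, 34.5 and 47.5 CPM, with a log2 fold change of −0.32 ± 0.105 (adjusted p = 0.0175), which was 0.0691 without WD replicate 7. In 129S1/SvImJ the values went from 26.1, 38.9 and 43.5 to 25.4, 29.9 and 31.8 CPM, with −0.31 ± 0.118 (adjusted p = 0.0411), and leaving out any of 7 mice raised that p above the threshold, up to 0.107. The values were −0.28 ± 0.128 in A/J, −0.08 ± 0.120 in WSB/EiJ, 0.03 ± 0.112 in CAST/EiJ and 0.01 ± 0.116 in PWK/PhJ, with adjusted p from 0.172 to 0.963. The F test over strains passed (adjusted p = 0.0178).

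Fgfr3 was called in CAST/EiJ alone in the fit of all mice. In C57BL/6J it was called lower without WD replicate 3 (−0.39, adjusted p = 0.0294), a mouse that stood apart, and with sample quality weights (−0.33, 0.0468). The CAST/EiJ mice on CD ranged from 12.8 CPM through a median of 31.6 to 53.2, and those on WD from 50.1 through 65.6 to 79.4. Of the 8 WD mice, 7 lay above all CD mice, and the log2 fold change was 1.08 ± 0.152 (adjusted p = 7.46e-08). In the other strains the difference lay between −0.29 in C57BL/6J (± 0.144, adjusted p = 0.127) and 0.08 in 129S1/SvImJ (± 0.159, 0.753). The F test between strains gave an adjusted p of 1.23e-05, and the CAST/EiJ effect exceeded that averaged over the other 6 strains by 1.13 ± 0.165 (adjusted p = 7.39e-07).

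Fgfr4, the receptor that hepatocytes use for FGF15, fell in 3 strains. C57BL/6J went from 34.5, 36.9 and 46.0 CPM on CD to 24.2, 30.1 and 36.2 on WD, a log2 fold change of −0.31 ± 0.0839 (adjusted p = 0.00333). In 129S1/SvImJ the values were 57.3, 67.7 and 73.4 against 49.3, 52.3 and 59.6 CPM, with −0.33 ± 0.0922 (adjusted p = 0.00391). PWK/PhJ had 54.4, 59.0 and 65.3 against 42.7, 47.6 and 58.2 CPM, with −0.33 ± 0.0922 (adjusted p = 0.00409) and 6 of 7 WD mice below all CD mice. CAST/EiJ was called in the opposite direction, at 0.23 ± 0.0861 (adjusted p = 0.0491), from 38.1, 50.6 and 66.8 to 47.9, 59.9 and 68.5 CPM. Only 6 of 25 alternatives kept that call. It was lost when any of 13 of the 15 mice was left out, with edgeR (adjusted p = 0.0613), DESeq2 (0.0695), no filter on low counts (0.112), RIN as a covariate (0.0655), sample quality weights (0.0519) and a separate fit (0.138). The F test between strains passed (adjusted p = 0.000252), and the CAST/EiJ effect exceeded that averaged over the other 6 strains by 0.41 ± 0.0941 (adjusted p = 0.00113). In the same kind of contrast no gene of the 7 was called for C57BL/6J (4.69% of all genes), A/J (0.466%), 129S1/SvImJ (6.28%), WSB/EiJ (0.947%) or PWK/PhJ (16.3%).

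**Figure D2:**
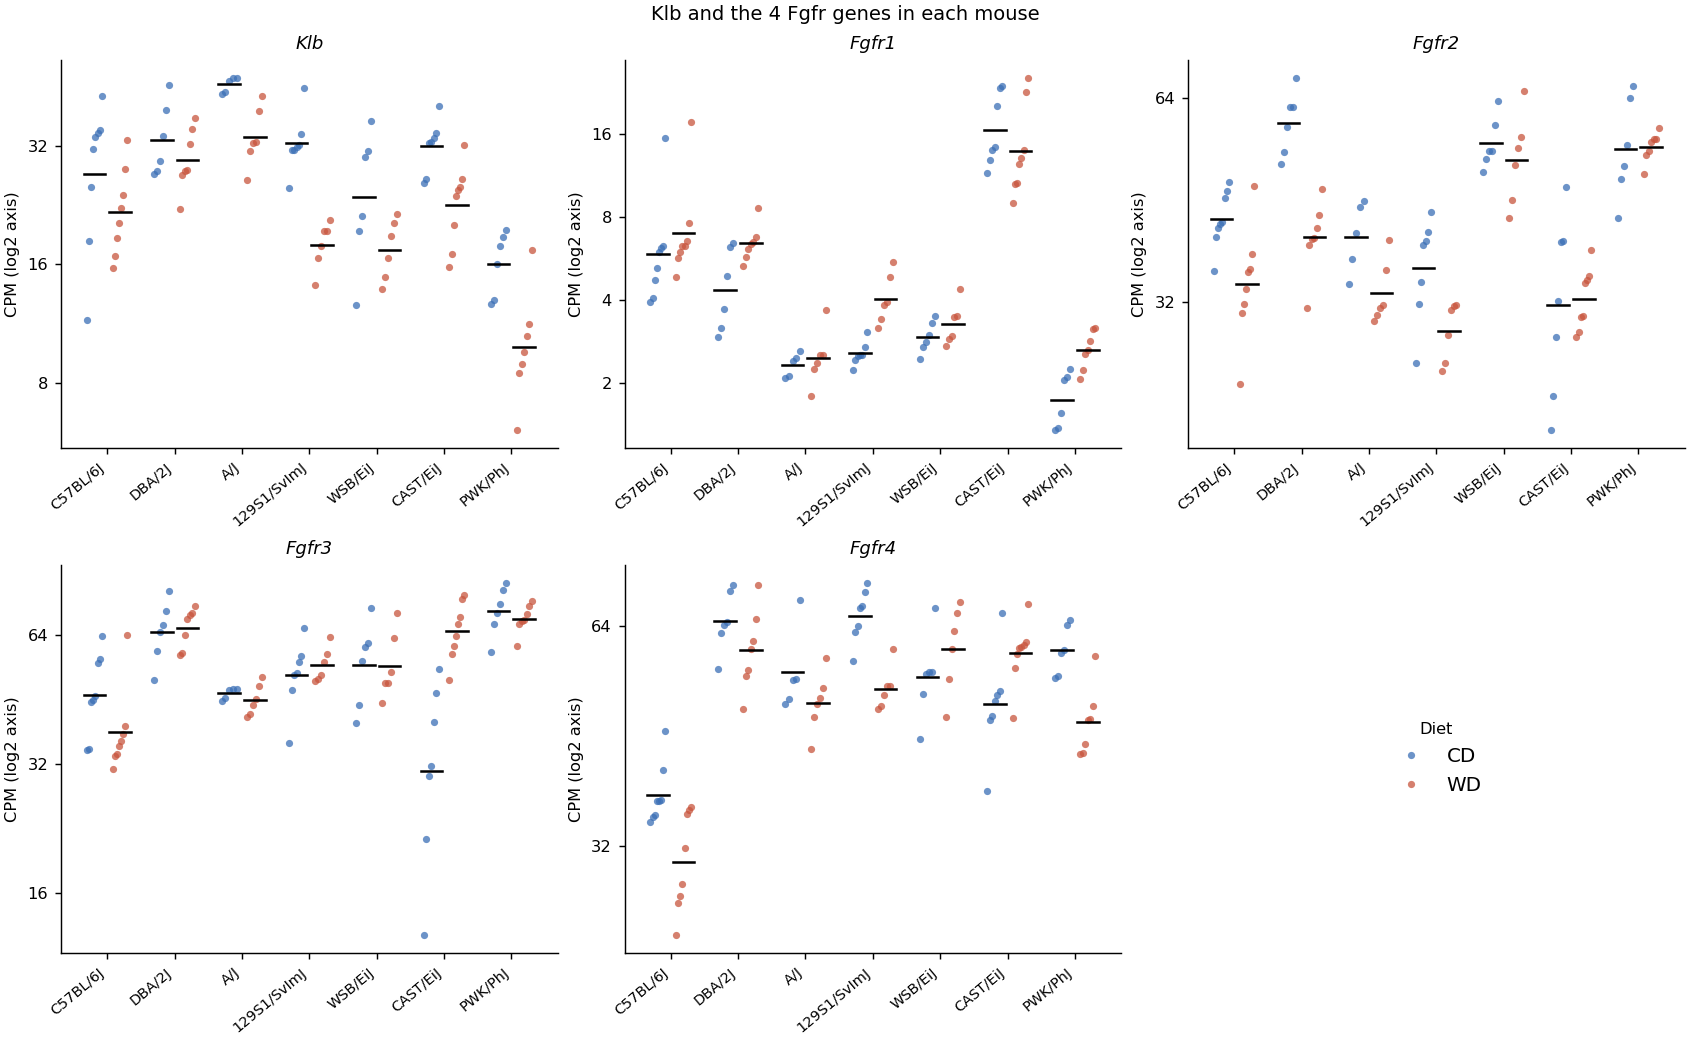
Klb and the 4 FGF receptor genes in every mouse (CPM, log axis) by strain and diet, where each point is a mouse and the black bar is the mean on the log2 scale. Klb lies lower on WD in each strain, and Fgfr3 in CAST/EiJ on CD (12.8 to 53.2 CPM) lies below most WD mice (50.1 to 79.4 CPM).

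**Figure D3:**
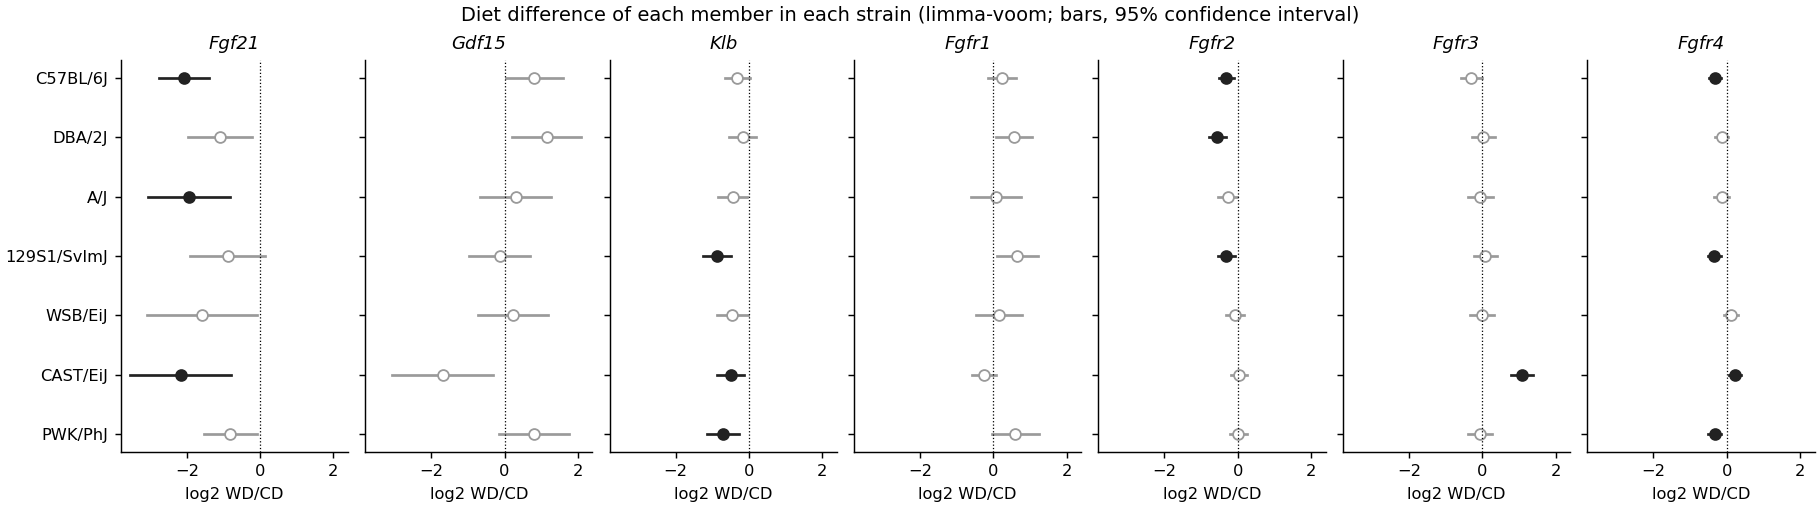
Difference between WD and CD on the log2 scale for the 7 genes in each strain, with bars for the 95% confidence interval, filled points for adjusted p below 0.05 and open points for the rest. All 7 Fgf21 and all 7 Klb points lie left of 0, whereas the CAST/EiJ points for Fgfr3 (1.08) and Fgfr4 (0.23) lie right of it.

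In bulk liver RNA, fewer cells of a type and less RNA per cell cannot be told apart, so marker genes of the cell types were measured beside these results. Of all genes tested, 11.9% fell in C57BL/6J, 7.77% in DBA/2J, 4.64% in A/J, 13.6% in 129S1/SvImJ, 3.97% in WSB/EiJ, 9.73% in CAST/EiJ and 14.5% in PWK/PhJ. In the same order, 14.3%, 10.2%, 4.39%, 14.5%, 4.97%, 9.77% and 15.1% rose. Of 9 hepatocyte markers tested, 6 fell in C57BL/6J, 2 in DBA/2J, 5 in A/J, 6 in 129S1/SvImJ, 3 in WSB/EiJ, 3 in CAST/EiJ and 5 in PWK/PhJ, and none rose in a strain. Of 8 markers of recruited macrophages, 8 rose in PWK/PhJ, 7 in C57BL/6J and 7 in 129S1/SvImJ, against 0 in DBA/2J, 1 in CAST/EiJ, 3 in A/J and 4 in WSB/EiJ. The remaining marker in C57BL/6J, Cd9, fell (−0.61, adjusted p = 0.00077). The summed level of these 8 markers in PWK/PhJ went from 71.7–151.9 CPM on CD to 229.6–656.4 on WD, and in 129S1/SvImJ from 36.6–62.3 to 122.5–217.2. Of 10 stellate cell and fibroblast markers, 6 rose in PWK/PhJ, 5 in C57BL/6J, 4 in 129S1/SvImJ and 2 in A/J. Of 10 macrophage markers, 6 rose in 129S1/SvImJ, 5 in PWK/PhJ and 4 in C57BL/6J. Of 8 endothelial markers 4 fell in DBA/2J, 5 of 7 cholangiocyte markers rose in PWK/PhJ, and 5 of 8 lymphocyte and neutrophil markers rose in 129S1/SvImJ. The endothelial and cholangiocyte lists did not move in the same direction in every strain. Endothelial Lyve1 rose in C57BL/6J (1.21, adjusted p = 5.02e-08) while Kdr fell there (−0.43, 0.000327), and Lyve1 also rose in 129S1/SvImJ (1.5, 1.23e-06). Cholangiocyte Cdh1 fell in DBA/2J (−2.95, adjusted p = 1.8e-11), C57BL/6J (−1.13, 9.13e-05) and 129S1/SvImJ (−1.11, 0.00686). Most of the 7 cholangiocyte markers did not follow it, as 5 in DBA/2J, 6 in C57BL/6J and 5 in 129S1/SvImJ were not called. Sox9 also fell in DBA/2J (−0.75, adjusted p = 0.00759), and Cldn7 rose in 129S1/SvImJ (1.32, 0.0314). Cps1, the urea cycle enzyme of hepatocytes, fell by 0.44 in C57BL/6J (adjusted p = 0.00959), by 0.42 in DBA/2J (0.0363) and by 0.59 in 129S1/SvImJ (0.0016) on the log2 scale. The part of cell composition in the falls of Klb, Fgfr2 and Fgfr4 was not tested.

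C57BL/6J held a pair of mice that stood apart, CD replicate 2 and WD replicate 3. Their recruited macrophage markers summed to 756 and 671.1 CPM, against medians of 100.1 and 229.1 in their groups, and their endothelial markers to 296.5 and 291.6 CPM, the lowest of their groups. Stellate cell and fibroblast markers summed to 1075 and 1311 CPM in them (group medians 388.8 and 632.7). Cholangiocyte markers summed to 235 and 159.5 CPM (group medians 68.55 and 40.38). Both sums were the highest of their groups, and both mice are part of the C57BL/6J marker counts above. These mice also had the highest Fgfr1 of their groups, 15.4 and 17.6 CPM against medians of 5.58 and 6.27. Without both mice, Klb was called lower in C57BL/6J (−0.43, adjusted p = 0.0345).

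Across strains, each gene differed on both diets. On CD the F test over strains was called for 93.7% of all genes and on WD for 93.9%, so that a call carries little about a single gene. On CD the adjusted p was 1.65e-09 for Fgf21, 0.0408 for Gdf15, 1.46e-08 for Klb, 1.39e-22 for Fgfr1, 3.41e-12 for Fgfr2, 1.29e-09 for Fgfr3 and 4.6e-14 for Fgfr4. On WD it was 6.99e-08, 1.46e-05, 2.08e-12, 2.75e-19, 4.03e-13, 1.4e-07 and 3.93e-19 in the same order.

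The strains were then put in order of their mean log2 CPM within a diet, and each strain was set against its neighbour in a two-sided exact permutation test, with p adjusted over 84 such tests, of which 8 passed. On CD the order for Fgf21 was C57BL/6J, PWK/PhJ, DBA/2J, A/J, 129S1/SvImJ, CAST/EiJ and WSB/EiJ, from a mean of 47.7 ± 14.8 CPM (SD, n = 8) to 7.66 ± 6.85 (SD, n = 6) at the ends, and no neighbours differed beyond their spread. On WD it was PWK/PhJ, C57BL/6J, DBA/2J, 129S1/SvImJ, A/J, WSB/EiJ and CAST/EiJ. PWK/PhJ kept 19.5 ± 8.84 CPM (SD, n = 7) and CAST/EiJ 1.58 ± 0.899 (SD, n = 8), and only A/J and WSB/EiJ differed as neighbours (1.07 on the log2 scale, no overlap, exact permutation test, adjusted p = 0.0326). For Gdf15 the 7 strains on CD did not differ as neighbours, and on WD CAST/EiJ stood below PWK/PhJ by 2.76 on the log2 scale without overlap (exact permutation test, adjusted p = 0.0131).

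Klb was highest in A/J on both diets (46.0 ± 2.06 CPM on CD, SD, n = 5) and lowest in PWK/PhJ (16.3 ± 2.94, SD, n = 6), and on WD PWK/PhJ lay below its neighbour WSB/EiJ by 0.82 (exact permutation test, adjusted p = 0.0489). Fgfr1 was highest in CAST/EiJ, at 17.2 ± 5.16 CPM on CD (SD, n = 7), above C57BL/6J by 1.49 on the log2 scale on CD and 0.98 on WD (exact permutation test, adjusted p = 0.0325 and 0.0489). On WD DBA/2J also exceeded 129S1/SvImJ by 0.66 (exact permutation test, adjusted p = 0.0326). Fgfr4 was lowest in C57BL/6J, below CAST/EiJ by 0.41 on CD and below PWK/PhJ by 0.64 on WD, where the groups did not overlap (exact permutation test, adjusted p = 0.0325 and 0.0131). No neighbours differed for Fgfr2 or Fgfr3 with these settings. With upper-quartile normalization 6 of 84 tests passed. The Klb pair on WD and the Fgfr4 pair on CD were lost, Fgfr1 kept 1 pair on WD, and 1 Fgfr2 pair passed on CD. Without both C57BL/6J mice that stood apart 10 passed, among them 1 Fgfr2 pair on CD and 1 Fgfr3 pair on WD.

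Shares of variance were taken from sums of squares of log2 CPM with strain fitted before diet. They were not scaled to the 7 levels of strain and 2 of diet, which favours strain. On this measure strain took more than diet in all 7 genes, from 83.1% for Fgfr1 and 67.9% for Fgfr4 to 35.7% for Fgfr3 and 35.1% for Gdf15. Diet took 22.2% for Fgf21, 15% for Klb, 7.53% for Fgfr2 and between 0.494% and 3.22% for the others. The interaction of strain and diet took 24% for Fgfr3 and 13.7% for Gdf15, and 50.7% of the variance of Gdf15 lay between mice of the same group.

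Once strain and diet means were removed, 21 pairs of genes were compared over the 93 mice, with permutation within groups. Fgf21 and Gdf15 moved together, with r = 0.608 and rho = 0.548 (permutation test, adjusted p = 0.00346 and 0.00021) and r = 0.543 without the 2 mice farthest from the median of Fgf21. Without the CAST/EiJ mice on CD r was 0.411 (86 mice). With cohort means removed as well r was 0.641. On CD alone it was 0.622 (permutation test, adjusted p = 0.0606) and on WD alone 0.563 (0.00441). Klb and Fgfr1 moved in opposite directions (r = −0.405, rho = −0.31, permutation test, adjusted p = 0.00588 and 0.0416), r was −0.321 without the 2 farthest mice, and with cohort means removed the adjusted p was 0.116. Fgfr3 and Fgfr4 moved together (r = 0.427, rho = 0.299, permutation test, adjusted p = 0.00346 and 0.0416), with r = 0.285 without the 2 farthest mice, r = 0.659 on CD and r = 0.102 on WD. Gdf15 and Fgfr3 had r = −0.478 (permutation test, adjusted p = 0.0484) but rho = −0.262 (0.147), and r was −0.132 without the CAST/EiJ mice on CD.

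**Figure D4:**
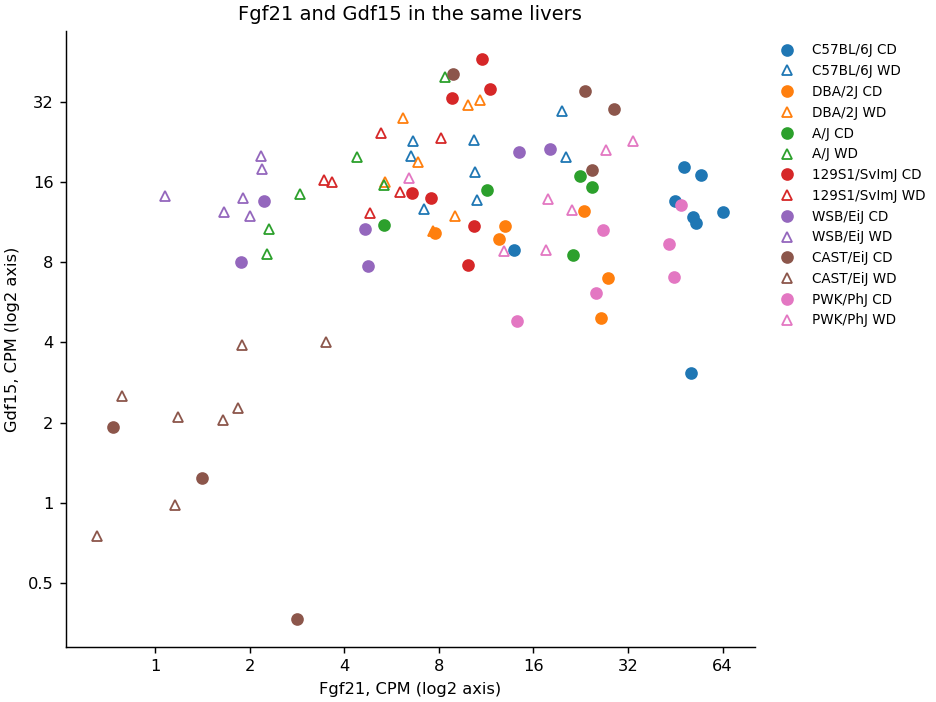
Fgf21 against Gdf15 in 93 mice (CPM, log axes), each point a mouse, with colours for strains, filled circles for CD and open triangles for WD. Differences between strains and diets are left in, whereas the r of 0.608 was taken after strain and diet means were removed. The CAST/EiJ mice on CD spread from 0.733 to 28.8 CPM of Fgf21 and from 0.368 to 40.7 CPM of Gdf15.

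The CAST/EiJ mice on CD were not alike. Of the 7 mice, replicates 3, 5, 6 and 7 had 24.6, 8.90, 23.4 and 28.8 CPM of Fgf21, and replicates 1, 2 and 4 had 2.82, 0.733 and 1.41. In the same order Gdf15 was 17.7, 40.7, 35.0 and 30.1 against 0.368, 1.92 and 1.24 CPM. Fgfr3 ran the other way, at 31.6, 12.8, 30.1 and 21.4 CPM against 46.9, 40.0 and 53.2. High and low mice shared cohorts, because replicates 2 and 3 came from 1 cohort and 4, 5, 6 and 7 from another. Pdk4, a PPARα target that blocks glucose oxidation, had 357.3, 881.8, 504.5 and 533.8 CPM against 3.60, 3.87 and 8.92, and Acot2, a mitochondrial thioesterase and PPARα target, had 30.1, 54.4, 48.8 and 59.5 against 3.85, 1.47 and 2.45. Cyp7a1 was lower in the first 4, at 26.0, 45.7, 33.9 and 39.2 CPM, than in the other 3, at 341, 121.9 and 195. Hepatocyte markers summed to between 124200 and 143100 CPM over the 7 mice. These mice were grouped here by their values, so no test was made between them.

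**Figure D5:**
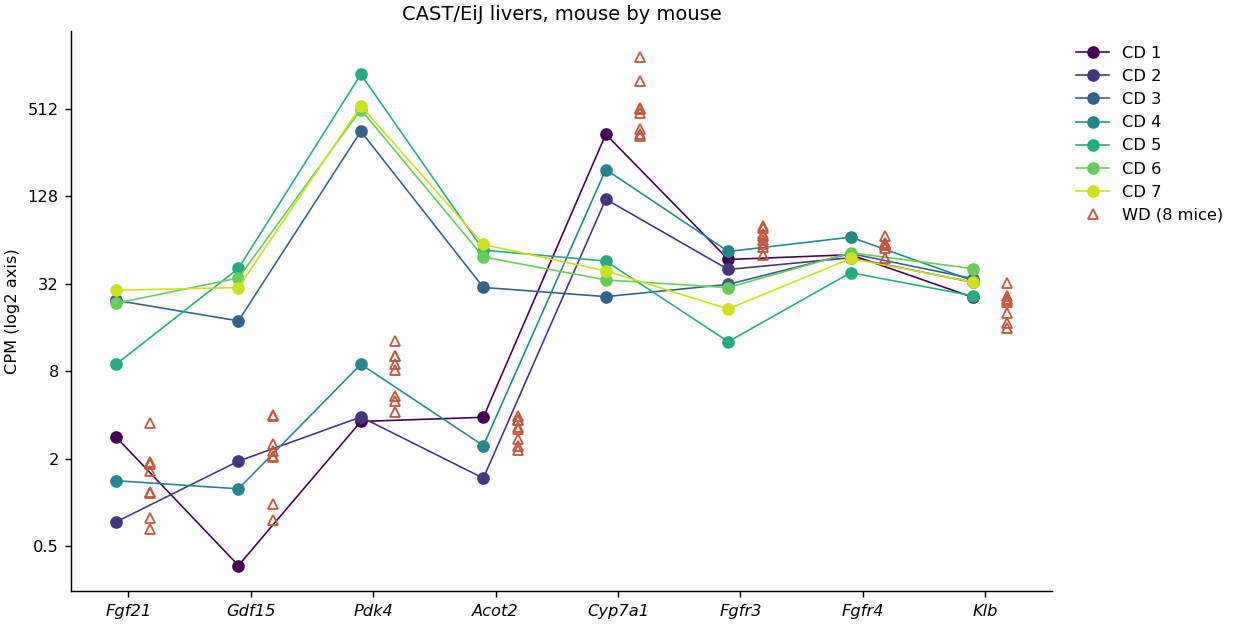
Level (CPM, log axis) of Fgf21, Gdf15, Fgfr3 and further genes in the CAST/EiJ mice, with lines that join the values of each CD mouse and triangles for WD mice. Replicates 3, 5, 6 and 7 on CD hold the high Fgf21 and Gdf15 and the low Cyp7a1 values, and the WD mice lie at 0.655 to 3.49 CPM for Fgf21.

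Of 24 PPARα target genes, 13 fell on WD in CAST/EiJ, 0 rose and 11 were not called, where 9.73% of all genes tested fell, with a median log2 fold change of −0.46 over the list beside 0.02 over all genes tested. The largest falls were those of Cyp4a10, a fatty acid hydroxylase (−3.37, adjusted p = 2.78e-05), Pdk4 (−3.26, adjusted p = 5e-04) and Acot2 (−2.04, adjusted p = 0.0102). For Cyp4a10 6 of the 8 WD mice lay below all CD mice, whereas for Pdk4 and Acot2 0 did. The high CD values of Pdk4 and Acot2 were those of replicates 3, 5, 6 and 7, and the other 3 CD mice lay among or below the WD mice. In C57BL/6J 3 rose and 1 fell (14.3% and 11.9% of all genes), in DBA/2J 3 rose (10.2%), and in 129S1/SvImJ 3 rose (14.5%). In PWK/PhJ 2 rose (15.1%), and in A/J and WSB/EiJ none was called. Vnn1, a PPARα target, rose in C57BL/6J (1.64, adjusted p = 5.46e-05), 129S1/SvImJ (1.90, 0.000151), DBA/2J (1.52, 0.0012) and PWK/PhJ (1.62, 0.000869). Ppara itself rose in C57BL/6J (0.57, adjusted p = 0.0428) and PWK/PhJ (0.62, 0.0438), and in CAST/EiJ its value was −0.39 (0.236).

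Among 25 genes of the integrated stress response, Atf4, its central factor, fell in all 7 strains, by 0.38 to 0.56 on the log2 scale (adjusted p from 1.36e-05 to 0.00968). Ddit3, which encodes CHOP, was called in none. PWK/PhJ had 9 genes up and 3 down (15.1% and 14.5% of all genes), with Slc7a11, a cystine transporter (2.58, adjusted p = 0.000676), Atf3 (1.80, 0.0103) and Stc2 (1.17, 0.00303) changing most. C57BL/6J had 4 up and 8 down (14.3% and 11.9% of all genes), among them Phgdh (−1.95, adjusted p = 1.17e-05) and Asns (−1.75, 0.00026), enzymes of serine and asparagine synthesis, and Chac1 (1.55, 6.13e-05), which degrades glutathione. DBA/2J had 2 up and 2 down (10.2% and 7.77% of all genes), and A/J 2 and 2 (4.39% and 4.64%). In 129S1/SvImJ 3 rose and 1 fell (14.5% and 13.6%), in WSB/EiJ 2 and 1 (4.97% and 3.97%), and in CAST/EiJ 1 and 4 (9.77% and 9.73%). Of 12 p53 targets, 6 rose in DBA/2J (10.2% of all genes rose) and 6 in PWK/PhJ (15.1%), led by Phlda3 (2.57 and 1.88, adjusted p = 0.000596 and 0.00535) and Eda2r (2.51 and 2.45, 2.28e-05 and 0.000312). In CAST/EiJ 3 fell (9.73% of all genes fell), with Btg2 at −1.25 (adjusted p = 0.0154). Btg2 spread widely on CD there (24.1 ± 15.8 CPM, SD, n = 7), and 0 of 8 WD mice lay below all CD mice. Of 14 ER stress chaperones at most 1 rose in a strain, and 3 fell in A/J (4.64% of all genes fell). Mitochondrial chaperones and proteases had at most 3 of 10 called in either direction in a strain. These were 3 up in DBA/2J (10.2% of all genes rose) and 3 down in 129S1/SvImJ (13.6% fell).

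On the receptor side, 11 of 13 partners of the FGF receptors were tested, and Gpc1, a heparan sulfate proteoglycan that binds FGFs, rose in all 7 strains, from 0.62 in PWK/PhJ (adjusted p = 0.0181) to 2.54 in 129S1/SvImJ (1.23e-07). Sdc2, a syndecan, fell in C57BL/6J (−0.42, adjusted p = 7.13e-06), A/J (−0.34, 0.00863), 129S1/SvImJ (−0.44, 3.34e-05) and PWK/PhJ (−0.46, 1.46e-05). Of 15 signalling adaptors, 5 fell in 129S1/SvImJ (13.6% of all genes fell), and Sos1, which activates RAS, fell most there (−0.72, adjusted p = 6.12e-08). Of 16 genes that ERK induces, 6 rose in 129S1/SvImJ (14.5% of all genes rose), 4 in C57BL/6J (14.3%) and 3 in PWK/PhJ (15.1%), with a median log2 fold change of 0.36, 0.21 and 0.48 over the list, and 10, 12 and 13 were not called. In DBA/2J 3 fell (7.77% of all genes) with a median of −0.28, and the other strains had at most 1 called in either direction. Dusp6, a phosphatase that ERK signalling induces, fell in DBA/2J (−0.63, adjusted p = 0.0431) and WSB/EiJ (−0.72, 0.0409).

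Other FGF ligands were mostly silent, with 6 of 21 tested. Fgf1 was not, with group means from 74.1 CPM in PWK/PhJ on CD to 162.1 in WSB/EiJ on WD, and it was called in no strain. Fgf9 rose in C57BL/6J (1.41, adjusted p = 0.000615), DBA/2J (3.02, 4.56e-09) and WSB/EiJ (1.64, 0.0184). Fgf15 had 0 to 2 counts per mouse, as did Gfral, while Ret had 0 to 17, and none of the 3 was tested. Of 11 bile acid genes tested, Cyp7a1 rose in DBA/2J (2.50, adjusted p = 0.000513), A/J (1.86, 0.0411) and CAST/EiJ (2.79, 3.16e-05), and its value was 1.23 in PWK/PhJ (0.0763), 1.15 in WSB/EiJ (0.214), 0.28 in 129S1/SvImJ (0.77) and −0.26 in C57BL/6J (0.753). Slc10a1, the bile acid uptake carrier of hepatocytes, fell in C57BL/6J (−0.55, adjusted p = 0.0117), 129S1/SvImJ (−0.80, 0.00127) and PWK/PhJ (−0.87, 0.000335).

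By likeness of their 14 group means, among 11148 genes, those most like Fgf21 were Sc5d (r = 0.925), Itga5 (0.916) and Mvd (0.909), of which Sc5d and Mvd encode enzymes of sterol synthesis. Those most like Gdf15 were Tlr5 (r = 0.899), Ugt2b34 (0.898) and Slc16a7 (0.888), those most like Klb were 4833413G10Rik (0.927), Stim1 (0.925) and Arl5b (0.912), and those most like Fgfr4 were Gm15920 (0.895), Eif3j2 (0.891) and Hsd3b5 (0.886). After group means were removed, over 93 mice, Fgf21 was most like Crot (r = 0.764), Pdk4 (0.752) and Acot2 (0.729), and Gdf15 most like Pdk4 (0.692), Zfp36l1 (0.684) and Jun (0.681). These values describe libraries that share strains, diets and depth, and no test was made on them.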

How the data were processed

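Liver RNA of 93 mice in 14 groups was measured. RNA with integrity numbers (RIN) of 7 to 9.7 was made into libraries with the SMARTER kit and sequenced on the BGISEQ-500. The authors mapped reads with STAR, of which the submitters' processing notes give version 2.7.1a and the GRCm38 (mm10) build, and deposited the raw read count of every gene per mouse, with no normalization. The annotation release and the strand setting are not given in the sources used here. The table's 4 summary lines were kept out of library sizes and used for shares of unmapped reads.

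The software was R 4.3.3, limma 3.58.1 and edgeR 4.0.16. A minimum count of 10 in filterByExpr set which genes were tested, and limma-voom on TMM-scaled counts had 14 group means. CPM used TMM-scaled library sizes, and log2 CPM a prior count of 2. Values after ± are standard errors of the log2 fold change, or SD where stated. Neighbouring strains were compared with exact permutation tests and pairs of genes with 100000 permutations within groups. P-values of the fit of all mice set a difference against the spread between mice within groups. That spread was a variance for each gene shared by all 14 groups. Alternatives were edgeR's quasi-likelihood test, DESeq2 1.42.0, upper-quartile normalization, other filters, cohort or RIN as a covariate, sample quality weights, separate fits per strain, each mouse left out, and, chosen after seeing the data, a fit without both C57BL/6J mice that stood apart. The fits were also run on simulated data, where all groups shared a mean and a spread for each gene and only PWK/PhJ on WD was changed. Those data lacked the strain differences and unequal spreads of these mice, so they cannot show how the fits behave under them. Motifs were searched in RefSeq promoters, and receptor proteins were not compared here. The hepatocyte marker Tf was not analysed here.

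The genes and the gene lists were chosen with earlier results of these data known. Besides the 7 genes, the text names the 3 genes most like Fgf21, Gdf15, Klb and Fgfr4 over group means (mean log2 CPM 1 or more), the 3 most like Fgf21 and Gdf15 between mice, up to 3 called genes of a list with the largest change in the strain described, members of lists of 5 or fewer, and Cyp7a1, Atf4, Ddit3, Ppara, Dusp6 and Cps1. Sdc2, Fgf1, Fgf15, Cd9 and, in the CAST/EiJ mice, the values of Acot2 and Pdk4 were added after they were seen.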

Additional observations from a re-analysis of the deposited data

Results flagged for a closer look

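Dixon's criterion was applied to each of the 7 genes in each of the 14 groups of mice. Of these 98 tests, which share mice between genes, 6 found a mouse far from the others, against about 1 in 20 by chance. Among C57BL/6J mice on CD, replicate 7 had 13.9 CPM of Fgf21 and replicate 3 had 3.07 CPM of Gdf15, both the lowest of their group, and replicate 2 had 15.4 CPM of Fgfr1, the highest. Among C57BL/6J mice on WD, replicate 3 had the highest Fgfr1 (17.6 CPM) and the highest Fgfr3 (64.1 CPM). Among A/J mice on CD, replicate 3 had 69.5 CPM of Fgfr4, the highest.

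The diet effect differed between strains by the F test for 4 of the 7 genes, with an adjusted p of 0.0362 for Gdf15, 0.0178 for Fgfr2, 1.23e-05 for Fgfr3 and 0.000252 for Fgfr4. In this test 37.5% of all genes were called, and Gdf15 lost the call without a filter on low counts (adjusted p = 0.0504).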

How the results depend on the processing

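No direction of a called change reversed. Over the 49 log2 fold changes, 448 of 490 values under other settings stayed on their side of the threshold, 12 fell below it and 30 passed it, and of 651 values with 1 mouse left out 609 stayed, 32 fell below and 10 passed. The number of genes called (reported value in parentheses) was 5 in C57BL/6J (3) and 3 in A/J (1) with sample quality weights. In DBA/2J (1) it was 2 with edgeR, 3 with DESeq2, 3 with weights, 4 with a separate fit and 2 without both C57BL/6J mice that stood apart. Separate fits gave 2 in A/J, 5 in 129S1/SvImJ (3), 2 in CAST/EiJ (4) and 4 in PWK/PhJ (2). In WSB/EiJ (0), edgeR gave 1 and DESeq2 1, in both cases Fgf21, and in CAST/EiJ no filter on low counts gave 2. Of the 21 gene pairs (4 called), 2 were called with cohort means removed, 2 on CD alone and 1 on WD alone. With 1 mouse left out, the genes called were 2 to 5 in C57BL/6J, 1 to 2 in DBA/2J, 0 to 1 in A/J, 2 to 3 in 129S1/SvImJ, 0 to 1 in WSB/EiJ, 1 to 5 in CAST/EiJ and 2 to 3 in PWK/PhJ, 3 to 5 in the F test of the diet effect between strains, and 6 to 7 on CD and 7 on WD in the F test of strain levels. Gdf15 lost the F test of the diet effect without a filter (adjusted p = 0.0504) and that of strain levels on CD without a filter (0.0638) or with weights (0.108). Fgfr1 passed the former with weights (0.0108), cohort (0.0383) or without both C57BL/6J mice (0.0129). The causes were not tested. No paired analysis was possible because replicate numbers were given in accession order and pair no mice. For Fgfr1 and the low CAST/EiJ mice, few reads add counting error to the spread between mice.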
